A study of Mus musculus with 5 samples.

Results

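The genes described here are the variable (V) segments of the T cell receptor alpha and beta chains, taken as every gene whose symbol starts with Trav or Trbv. They numbered 163 of the 32285 genes in the count tables, 128 of them Trav and 35 Trbv. Their UMIs, the molecular tags that each stand for one captured RNA molecule, were counted in 22874 cells with at least 1 UMI of Cd3d, Cd3e or Cd3g, called Cd3+ cells. In these cells 118 segments had a UMI and 45 had none (38 Trav and 7 Trbv), 70 held between 1 and 99 UMIs, and 48 reached 100 UMIs (35 Trav and 13 Trbv).

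The cells were CD4 T cells from the spleen of 1 naive OT-II mouse, purified by negative selection. OT-II is a transgene for a T cell receptor that recognises a peptide of ovalbumin on MHC class II. The labels give 5 groups of 1 sample each, and OT-II cells are in every one: OT-II cells alone, without a tumor clone or treatment, and overnight cocultures with antigen-presenting cancer-associated fibroblasts (apCAFs) of the pancreatic tumor clone sKPC with DMSO, sKPC with OVA, rKPC with DMSO and rKPC with OVA. The apCAFs were sorted from tumors. The sources used here do not say whether the OT-II mouse carried a Rag deletion, nor its age or the number of tumors. Single-cell RNA was read from the 5' end with 10x Genomics chemistry.

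Cells came in 2 aggregated tables, G and H, with 3 and 2 library suffixes, while the labels list 2 samples for G and 3 for H. The suffixes could not be tied to samples, so the libraries Ga, Gb, Gc, Ha and Hb belong to no group and are given one by one. No effect of coculture, clone or OVA can be read from them, no test across samples was possible, and all intervals below are exact 95% Clopper-Pearson intervals or intervals of a difference built from them, which cover counting error only. The 5 libraries held 5236, 3081, 6419, 4200 and 3938 Cd3+ cells in the order Ga, Gb, Gc, Ha, Hb, with a median of 7928 to 8767.5 UMIs per cell. Runs of 5 values below keep this order. Libraries shared between 2 and 14 barcodes pairwise. Trac, the alpha constant gene, was found in 99.8% of Cd3+ cells, Cd4 in 64.7%, Cd8a in 0.162% and Cd8b1 in 5.48%. Library Gc stood apart in Trac, at 3784 CPM (UMIs per 1000000 UMIs of the library) against 6561 to 7560 CPM in the other 4, and results below that rest on it are given without it too.

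A T cell builds each receptor chain by joining one V segment to joining segments (and, for beta, a diversity segment) in front of a constant region. A V segment in the RNA can therefore show which segment a cell rearranged. Counts per gene do not show the joint itself, so a V UMI alone does not prove that its segment was rearranged. OT-II cells carry rearranged chains with V alpha 2, encoded by the Trav14 family, and V beta 5, encoded by the Trbv12 family. A rearranged beta transgene blocks rearrangement of the cell's own beta loci well, while the block is weaker for alpha, so transgenic T cells can carry an endogenous alpha chain beside the transgenic one. The delta locus lies inside the alpha locus, and segments with dv in their symbol can join either to alpha or to delta. Any Trav outside the Trav14 family and any Trbv outside the Trbv12 family is called endogenous here by its name only.

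The segments that carry the results are shown by the last 110 bases of their V exon, the stretch that runs up to the joint, from the GENCODE M21 annotation of GRCm38 (the assembly also called mm10). The beta segments are Trbv12-2 (chr6:41119255-41119364, plus strand), its closest expressed relative Trbv12-1 (chr6:41113958-41114067, plus strand) and Trbv26 (chr6:41227884-41227993, plus strand). Trbv12-2 and Trbv26 took the most and the second most UMIs of all Trbv genes, and Trbv12-1 is shown for comparison. Capitals mark the 7 bases at which Trbv12-1 differs from Trbv12-2.
Trbv12-2: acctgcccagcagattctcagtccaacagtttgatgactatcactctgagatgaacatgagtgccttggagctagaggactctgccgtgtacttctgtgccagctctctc
Trbv12-1: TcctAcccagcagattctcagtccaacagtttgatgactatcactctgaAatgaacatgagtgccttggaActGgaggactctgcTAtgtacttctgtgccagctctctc
Trbv26: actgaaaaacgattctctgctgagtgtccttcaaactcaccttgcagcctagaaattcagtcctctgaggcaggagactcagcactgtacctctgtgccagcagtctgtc

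The Trav14 genes are shown because their copies are hard to tell apart. They are Trav14-3 (chr14:53763585-53763694), Trav14-2 (chr14:53641116-53641225), Trav14-1 (chr14:53554449-53554558) and the copy Trav14d-1 (chr14:52856057-52856166), all on the plus strand. Capitals mark the bases that differ from Trav14-3, which number 3, 3 and 2. Over their whole annotated sequence, Trav14 copies were 93.4% to 97.7% identical to each other, except that Trav14d-1 equals Trav14n-1 and Trav14d-2 equals Trav14n-2.
Trav14-3: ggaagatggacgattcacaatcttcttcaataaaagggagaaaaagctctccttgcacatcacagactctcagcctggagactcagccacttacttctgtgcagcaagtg
Trav14-2: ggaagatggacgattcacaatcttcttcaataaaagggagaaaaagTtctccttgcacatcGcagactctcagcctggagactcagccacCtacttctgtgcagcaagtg
Trav14-1: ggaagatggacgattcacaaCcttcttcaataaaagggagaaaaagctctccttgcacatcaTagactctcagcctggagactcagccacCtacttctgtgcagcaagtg
Trav14d-1: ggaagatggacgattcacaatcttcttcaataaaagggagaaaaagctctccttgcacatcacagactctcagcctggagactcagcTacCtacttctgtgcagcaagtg

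The dv segments called higher in Trdc- or Maf-positive cells below include the 4 shown next, which are Trav15-2-dv6-2 (chr14:53649885-53649994), Trav15-1-dv6-1 (chr14:53560138-53560247), Trav13-4-dv7 (chr14:53757812-53757921) and Trav4-4-dv10 (chr14:53684068-53684177), all on the plus strand. Capitals mark the 17 bases at which Trav15-1-dv6-1 differs from Trav15-2-dv6-2, so these genes of the Trav15 family are told apart over this stretch.
Trav15-2-dv6-2: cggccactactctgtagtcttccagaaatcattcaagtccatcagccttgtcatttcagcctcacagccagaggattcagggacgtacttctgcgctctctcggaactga
Trav15-1-dv6-1: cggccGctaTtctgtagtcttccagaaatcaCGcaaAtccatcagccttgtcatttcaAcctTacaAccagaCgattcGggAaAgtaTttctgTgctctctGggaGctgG
Trav13-4-dv7: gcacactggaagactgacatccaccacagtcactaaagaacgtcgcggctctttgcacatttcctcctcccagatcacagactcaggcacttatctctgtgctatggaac
Trav4-4-dv10: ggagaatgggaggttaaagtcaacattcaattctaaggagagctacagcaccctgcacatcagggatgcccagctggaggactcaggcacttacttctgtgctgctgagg

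V segments were rare against the constant regions of the same chains. Cd3+ cells held 11483 Trav and 12112 Trbv UMIs, against 1249853 UMIs of Trac and 621390 of the beta constant genes Trbc1 and Trbc2. Per 1000 Trac UMIs there were 7.71, 8.91, 12.3, 8.83 and 9.10 Trav UMIs. Per 1000 Trbc UMIs there were 19.3, 23.7, 17.0, 19.97 and 19.9 Trbv UMIs in the same order. Trav as a whole stood at 58.3, 58.4, 46.6, 63.7 and 61.0 CPM, and Trbv at 55.2, 70.5, 46.7, 71.7 and 66.0 CPM. Gc was thus the lowest library in Trav and Trbv CPM but the highest in Trav per Trac UMI, its Trac being low. The reason for the small share of V UMIs was not tested. It limits what follows, since a cell without a V UMI still has a receptor.

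One beta family took most of the Trbv UMIs in every library. Trbv12 made up 58.7%, 57.6%, 50.6%, 59.5% and 55.2% of them, and only the interval of Gc (48.7% to 52.5%) lay below those of the other 4. Nearly all of it was Trbv12-2, with 6690 UMIs in 5374 cells and at most 7 UMIs in a cell. Trbv12-2 stood at 31.9, 39.9, 23.1, 42.1 and 35.9 CPM, so that Gc was the lowest library. Trbv12-1 had 110 UMIs and the pseudogene Trbv12-3 had 6. Trbv12-2 and Trbv12-1 were 88.3% identical over their aligned length, so these counts separate them better than those of the Trav14 copies.

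Trbv26 was the second beta segment in every library. It had 2602 UMIs in 2371 cells, never more than 4 in one cell, and made up 19.4%, 21.2%, 25.5%, 18.6% and 22.5% of Trbv UMIs. In CPM it did not follow Trbv12-2, since it stood at 10.7, 14.9, 11.9, 13.4 and 14.8, with Ga and not Gc the lowest. Trbv26 is the endogenous beta segment with the most UMIs by a wide margin. The next was the Trbv13 family (V beta 8), with 419 UMIs over 3 genes and a median of 3.34% of Trbv UMIs. Trbv2 had 346 UMIs, Trbv31, which lies on the minus strand beyond the constant genes, 321, Trbv20 283, Trbv13-2 272, Trbv3 218, Trbv21 192, Trbv19 174 and the pseudogene Trbv24 123. Each of these single genes had a median share between 1.01% and 2.94%.

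**Figure D1:**
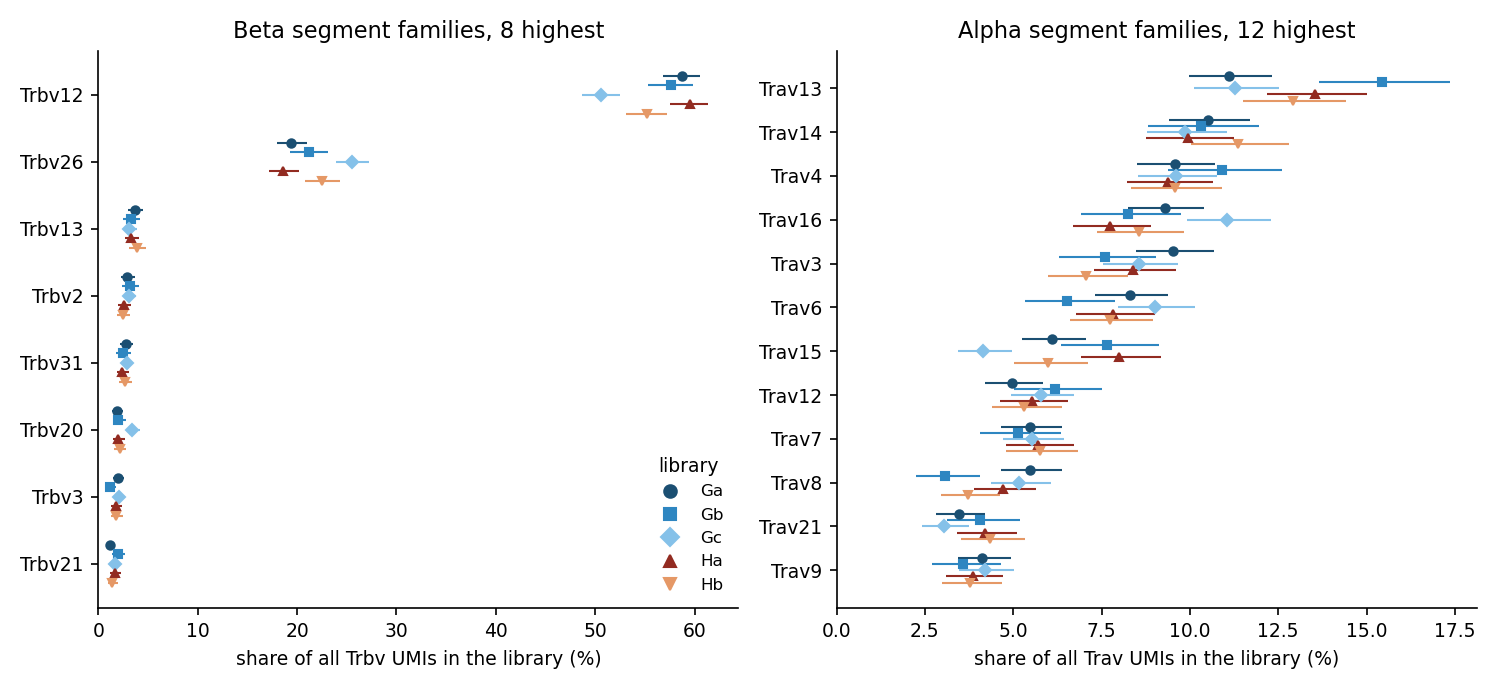
Share of all Trbv UMIs (left) and of all Trav UMIs (right) taken by the leading segment families, in percent, for each of the 5 libraries (points, with exact 95% intervals of counting error). Trbv12 took 50.6% to 59.5% and Trbv26 18.6% to 25.5% of the beta UMIs, while no alpha family passed 15.4%.

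Alpha UMIs were spread over many families, and the OT-II family Trav14 did not lead them. Trav13 took a median of 12.9% of Trav UMIs (11.1% to 15.4%), Trav14 10.3%, Trav4 9.57%, Trav16 8.55%, Trav3 8.39%, Trav6 7.83% and Trav15 6.11%. Trav14 itself made up 10.5%, 10.3%, 9.87%, 9.95% and 11.4%, and all 5 intervals overlapped. Its genes split as Trav14-3 with 305 UMIs, Trav14-2 with 224, Trav14-1 with 210, Trav14n-3 with 156, Trav14d-1 with 139, Trav14d-3-dv8 with 124 and Trav14n-1 with 33, while Trav14d-2 and Trav14n-2 had none. The latter pair have identical sequences, as have Trav14d-1 and Trav14n-1. The sources used here do not say how the counting shared reads between such copies, so the family sum is safer than single genes. Every 90-base window of these identical copies also occurs in another Trav or Trbv gene. Reads that match several copies can be dropped in counting, which would lower the family sum too.

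The alpha gene with the most UMIs was Trav3-3, with 827 UMIs in 547 cells and 4.65, 3.73, 3.49, 4.66 and 3.80 CPM. It was followed by Trav16 (680 UMIs), Trav4-4-dv10 (668), Trav13-4-dv7 (604), Trav6-7-dv9 (572), Trav21-dv12 (430), Trav15-2-dv6-2 (389), Trav4-3 (349), the annotated pseudogene Trav22 (339) and Trav13-1 (333). The median share of Trav UMIs of these 10 genes ran from 2.73% to 7.31%, so no alpha gene came near the place of Trbv12-2. Few UMIs were counted for the segments of the invariant alpha chains. Trav11, used by invariant NKT cells, had 1 UMI and Trav11d none, while the copy Trav11n, an annotated pseudogene, had 11 UMIs. Of the 90-base windows of Trav11 only 0.39% occur in no other Trav or Trbv gene, and none of Trav11d do, against 100% for Trav11n. Reads of Trav11 and Trav11d can therefore be dropped in counting, and their counts do not measure their use. Trav1, used by mucosal-associated invariant T cells, had 13.

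Most Trav UMIs came from segments at the end of the locus near Trac. In order along the chromosome, the 42 segments nearest to Trac, 243 to 759 kb before it, took 81.9%, 83.7%, 82.2%, 84.7% and 82.8% of Trav UMIs. The 43 segments in the middle took a median of 12.5% and the 43 farthest ones 4.76%. The split of the locus into 3 parts was made after the values were seen. Many distal segments are near copies of others: the 39 segments with d in their number took 5.56% of Trav UMIs (median), the 34 with n took 8.45%, and the 55 remaining ones 86.1%. A read that matches several segments can be dropped or misplaced in counting, so the shares were also computed over the segments in which more than 90% of all 90-base windows occur in no other Trav or Trbv gene. That set holds 20 segments of the nearest part, 3 of the middle and 9 of the farthest, and these took medians of 89.0%, 6.46% and 4.46%. The parts hold unequal numbers of such segments, so these shares cannot be set directly beside those over all segments, and the part of read matching in the pattern was not tested.

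**Figure D2:**
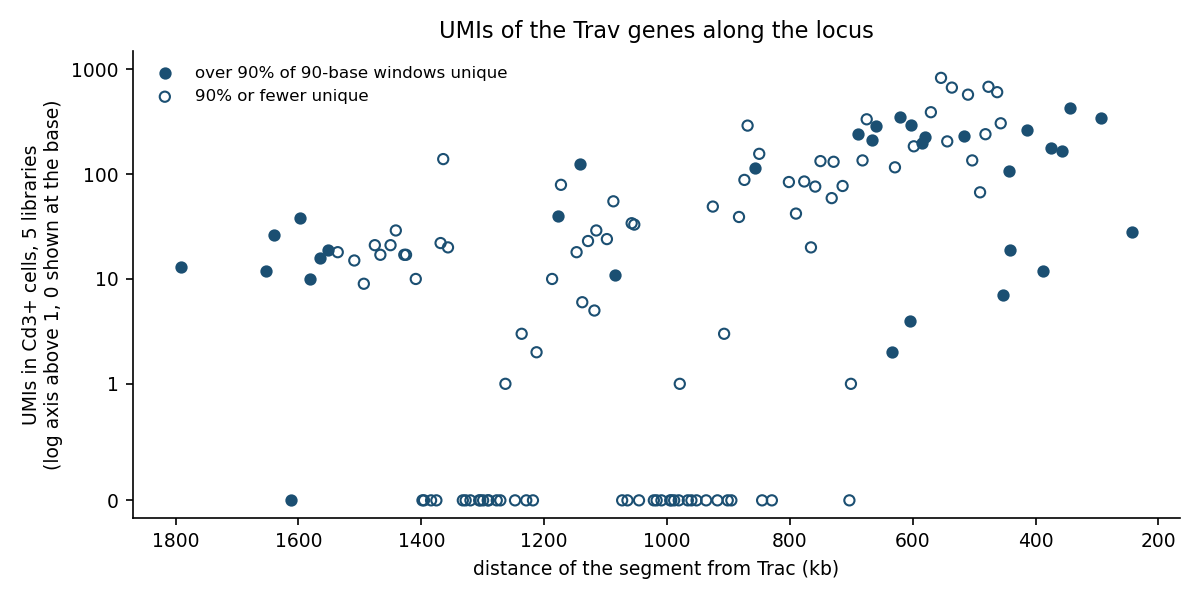
UMIs of each Trav gene in Cd3+ cells of the 5 libraries (log axis above 1, with 0 at the base) against its distance from Trac in kb on GRCm38. Filled points are segments with over 90% of 90-base windows unique, and the points above 300 UMIs all lie within 759 kb of Trac.

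About 1 UMI was found in most cells that had any. Of 6779 cells with a Trav UMI 63.3% had exactly 1, and of 8611 cells with a Trbv UMI 70.1% had exactly 1. The share of cells with a segment is therefore a share of detection and not of use, since a cell can use a segment without a UMI of it and free RNA or a doublet can add a UMI. Trbv12 was found in 23.8%, 27.3%, 18.4%, 28.2% and 25.4% of Cd3+ cells. Another Trbv was found in 17.6%, 20.2%, 18.0%, 20.4% and 20.8%, of which Trbv26 made a large part, since without it the median fell from 20.2% to 10.2%. Gc was the lowest library in Trbv12, while its share of cells with another Trbv lay within the range of the other libraries.

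For the alpha chain the order was turned around, with an endogenous segment detected in far more cells than the OT-II family. Reads shared between Trav14 copies can be dropped in counting, so Trav14 may be found too rarely. Other Trav families hold near copies too, and the gap does not measure use. Trav14 was found in 3.93%, 3.64%, 3.51%, 3.60% and 4.44% of cells. A Trav other than Trav14 was found in 28.3%, 25.9%, 23.9%, 29.3% and 28.5%. Trav14 and Trbv12 were found together in 1.03%, 1.04%, 0.732%, 1.05% and 1.04% of cells, or 218 of 22874 cells. Trav14 and another Trav were found together in 256 cells, Trbv12 and another Trbv in 1215.

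These shares moved with depth, while the order of their medians did not change. When each cell was thinned at random to 4000 UMIs, which left out 1446 shallower cells (289, 196, 401, 318 and 242 by library), Trbv12 was found in 12.7%, 15.2%, 8.84%, 15.4% and 12.9% of cells. The medians at this depth were 1.88% for Trav14, 16.0% for another Trav, 9.69% for another Trbv and 0.277% for Trav14 with Trbv12. Barcodes without a Cd3 UMI but with markers of other cell types served as a background. There, a Trav was found in 0 of 28 B cell, 0 of 162 erythroid and 1 of 40 myeloid barcodes, and a Trbv in 1, 1 and 3 of them. The counts of 0 allow up to 12.3% of the B cell and 2.25% of the erythroid barcodes, whose median depths were 11403.5 and 8549 UMIs. The myeloid barcodes had a median of 30951 UMIs. Trac, far more abundant, was found in all 28 B cell barcodes (1880 UMIs), all 40 myeloid ones (1211 UMIs) and 36 of the 162 erythroid ones (1077 UMIs). The part of doublets with T cells in these barcodes was not tested, so they do not isolate free RNA. The marker thresholds for these barcodes were set after their values were seen.

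**Figure D3:**
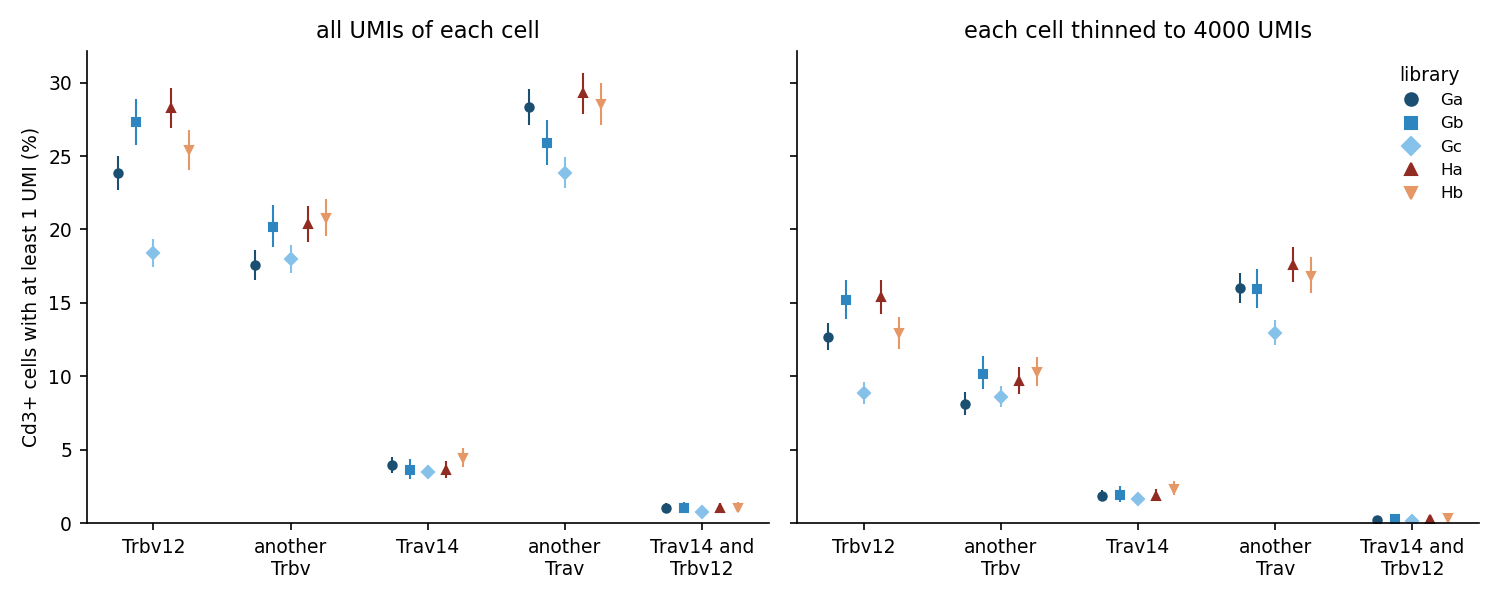
Percent of Cd3+ cells with at least 1 UMI of Trbv12, another Trbv, Trav14, another Trav, or Trav14 with Trbv12, for each library (points, with exact 95% intervals), with all UMIs (left) and after thinning to 4000 UMIs per cell (right). Another Trav (23.9% to 29.3%) stood far above Trav14 (3.51% to 4.44%), whereas Trbv12 (18.4% to 28.2%) stood above another Trbv (17.6% to 20.8%) in every library before thinning, with overlapping intervals in Gc.

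Where a cell had several UMIs of a chain, they often came from more than one family. Of 2485 cells with at least 2 Trav UMIs 59.2% held a single family, and of 2575 cells with at least 2 Trbv UMIs 44.4% did. With at least 4 UMIs, 277 of 525 cells held a single Trav family and 33 of 173 a single Trbv family. The part of doublets and of free RNA in this was not tested. Trbv26 was found more often in cells with Trbv12 than in cells without it. After thinning, Trbv26 was found in 5.10%, 7.08%, 7.14%, 7.37% and 7.32% of Trbv12-positive cells, against 4.19%, 5.07%, 4.59%, 4.35% and 5.56% of the other cells. It was higher in all 5 libraries, and the interval of the difference lay above 0 in Gc (0.43 to 5.14 percentage points) and Ha (0.91 to 5.51). Other Trbv segments gave differences from -1.69 to 0.22 points, with 0 in all 5 intervals. Detection of an endogenous alpha did not go with a visible change in Trbv12 either. Trbv12 was found in 13.2%, 17.7%, 8.55%, 17.3% and 12.1% of cells with only another Trav. In all other cells it was found in 12.6%, 14.7%, 8.88%, 15.0% and 13.1%, and each interval of the difference held 0.

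Segment detection was then compared between kinds of cells within each library. Cells with at least 1 UMI of Foxp3, which specifies regulatory T cells, numbered 466. Cells with Maf, a transcription factor of effector and regulatory T cells, numbered 1999, and cells with Trdc, the delta constant gene, 4679. The classes overlap, as 205 cells had Foxp3 with Maf, 654 Maf with Trdc and 135 Foxp3 with Trdc. The 16647 cells with none of the 3 served for comparison. Trdc alone does not make a gamma-delta T cell here, because 45.3% of Trdc-positive cells had a Cd4 UMI. A narrower class, added after the values were seen, took the 2000 cells with at least 2 Trdc UMIs and no Cd4 UMI. Class cells were deeper than the others, with library medians of 8982 to 9580.5 UMIs for Trdc against 7637 to 8507 for cells with none, so shares below are after thinning to 4000 UMIs.

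Trbv12 was found in a smaller share of Maf- and Trdc-positive cells than of cells with none of the 3 genes. In cells with none, Trbv12 was found in 13.9%, 17.5%, 9.49%, 17.8% and 14.4%. In Maf-positive cells it was found in 9.21%, 9.75%, 6.63%, 8.49% and 6.92%, which is lower in 5 of 5 libraries, with every interval of the difference below 0. In Trdc-positive cells it was found in 9.82%, 8.28%, 6.85%, 10.2% and 9.39%, again lower in all 5 with every interval below 0. The Trdc cells without Cd4 were lower still, at 4.98%, 6.92%, 5.01%, 6.18% and 7.53%.

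Foxp3-positive cells varied more, being few. Trbv12 was found in 9 of 122 of them in Ga (7.38%), 8 of 50 in Gb (16.0%), 6 of 129 in Gc (4.65%), 2 of 90 in Ha (2.22%) and 8 of 57 in Hb (14.04%). All 5 values lay below those of cells with none, but only the intervals of Ga and Ha lay below 0.

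**Figure D4:**
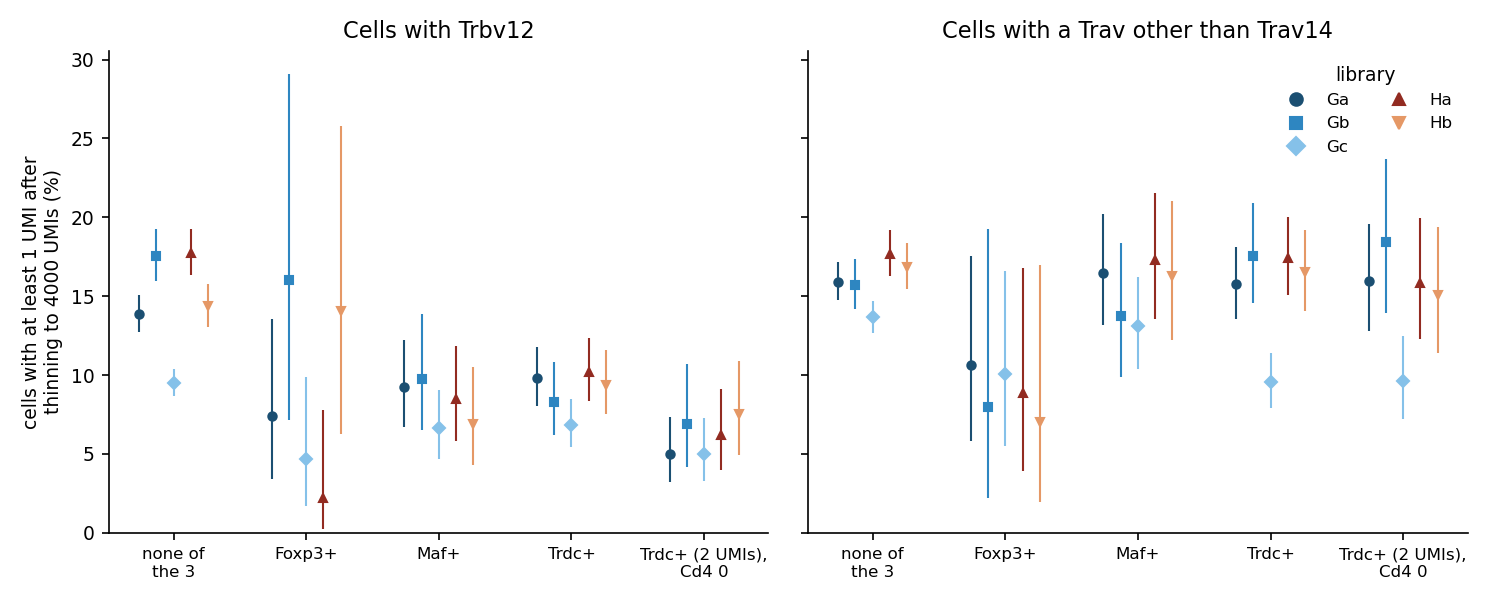
Percent of cells with at least 1 UMI of Trbv12 (left) and of a Trav other than Trav14 (right), after thinning to 4000 UMIs, in cells with none of Foxp3, Maf and Trdc, in cells positive for each, and in cells with 2 or more Trdc UMIs and no Cd4 UMI. Points are libraries with exact 95% intervals. Trbv12 was at 9.49% to 17.8% in cells with none and at 4.98% to 7.53% in the Trdc cells without Cd4.

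By median difference, the share of cells with an endogenous Trav changed less than that with Trbv12 in Maf- and Trdc-positive cells. In Foxp3-positive cells the order depended on thinning. The median difference for Trbv12 was -4.84 points with thinning and -6.95 without, against -7.71 and -4.07 for an endogenous Trav. Cells with none of the 3 genes held an endogenous Trav in 15.9%, 15.7%, 13.7%, 17.7% and 16.9% in library order. The median difference was -0.60 percentage points for Maf-positive and -0.24 for Trdc-positive cells. The sign of both turned without thinning (1.07 and 1.78 points) and when the 6% of barcodes with most UMIs were left out (0.17 and 0.09 points), so neither has a direction. Trdc-positive cells of Gc stood apart at 9.53%, with an interval of the difference from -6.08 to -2.05 points, whereas the intervals of the other 4 libraries held 0. In Foxp3-positive cells it was 10.7%, 8%, 10.1%, 8.89% and 7.02%, lower in 5 of 5 libraries by a median of 7.71 points, although only the interval of Ha lay below 0. The median difference shrank to -4.07 points without thinning and -4.38 points after thinning to 2000 UMIs. Trav14 in Trdc-positive cells lay below cells with none by 0.28 to 0.87 points in all 5 libraries, with 0 in each interval.

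Which endogenous segments were found did differ between classes. Trav15 was found in 4.57% of Trdc-positive cells (median over libraries) against 0.531% of cells with none, higher in 5 of 5 libraries, and in 7.26% of the Trdc cells without Cd4. Trav13 was found in 2.77% of Trdc-positive cells against 2.07%, higher in 4 of 5. In Maf-positive cells Trav4 was found in 3.81% against 1.49%, higher in 5 of 5 libraries, and Trav15 in 2.08%, also higher in all 5. Trbv26 was lower in each class in 5 of 5 libraries, at 2.95% in Maf-positive, 2.45% in Trdc-positive and 1.55% in Foxp3-positive cells against 5.77%. In Foxp3-positive cells the families with the highest shares besides Trav14, Trbv12 and Trbv26 were Trav15 (2%, 7 of 448 cells), Trbv13 (1.75%, 8 cells), Trbv2 (1.55%, 7 cells) and Trav4 (1.55%, 6 cells), counts too small to rank. Trbv13 and Trbv2 were higher than in cells with none in 5 of 5 libraries, Trav15 in 4 and Trav4 in 3. These families were picked by their share in this same class and rest on very few cells per library. No difference can be read from these counts of libraries.

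The Trav15 and Trav4 results came down to segments that alpha and delta share. The 10 segments with dv in their symbol took 26.6%, 32.7%, 23.2%, 30.1% and 28.7% of Trav UMIs over all Cd3+ cells. In cells with none of the 3 genes they took 19.4%, 19.4%, 18.4%, 21.1% and 20.3%. In Trdc-positive cells they took 47.6%, 61.5%, 40.3%, 51.3% and 48.2%, and in Trdc cells without Cd4 72.3%, 84.2%, 55.6%, 70.6% and 67.2%. In Maf-positive cells they took 44.0%, 56.1%, 38.7%, 47.7% and 47.1%. No library overlapped between cells with none and any of these 3 classes. In Foxp3-positive cells, which held 23 to 78 Trav UMIs a library, they took a median of 43.5%. Maf- and Foxp3-positive cells include Trdc-positive ones, which cells with none exclude by the rule. The share in Maf- or Foxp3-positive cells without Trdc was not computed.

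Single dv segments differed in how they were spread over the Trdc and the Maf classes. Trav15-2-dv6-2 stood at 0.42, 0.52, 0.68, 0.88 and 0.31 CPM in cells with none, and at 6.62, 9.04, 2.69, 9.63 and 5.47 CPM in Trdc-positive cells. Trav13-4-dv7 stood at 1.35, 1.38, 0.77, 2.52 and 1.41 CPM in cells with none, and at 6.98, 16.7, 3.33, 8.18 and 11.1 CPM in Trdc-positive cells. Both were higher in every library and at least 2-fold in the median library, as 5.01% of all 14758 genes were. Trav15-2-dv6-2 was higher in Maf-positive cells too, at 3.04, 3.15, 0.87, 6.27 and 5.55 CPM, with Gc (0.87) inside the range of cells with none. Trav13-4-dv7 had a median of 3.14 CPM in Maf-positive cells against 1.38 in cells with none, and its groups overlapped. Trav15-1-dv6-1 had medians of 0.90 CPM in cells with none, 3.76 in Trdc-positive cells and 5.74 in Trdc cells without Cd4.

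Trav4-4-dv10 was high in Maf-positive cells and not in Trdc-positive cells. It stood at 3.24, 2.65, 1.69, 2.99 and 3.21 CPM in cells with none and at 11.97, 13.5, 8.24, 11.8 and 13.1 CPM in Maf-positive cells, and its median was 1.06 CPM in Trdc-positive cells and 0.27 CPM in Trdc cells without Cd4. Trav6-7-dv9 went the other way from both, with 3.12, 3.29, 3.57, 3.79 and 3.65 CPM in cells with none, 2.66, 1.43, 1.45, 0.96 and 0.88 in Maf-positive and 1.54, 1.06, 0.79, 1.24 and 1.14 in Trdc-positive cells. Trav21-dv12 had medians of 1.56 CPM in cells with none, 3.23 in Maf-positive and 3.53 in Trdc-positive cells. Trav14d-3-dv8 and Trav16d-dv11 had 124 and 79 UMIs in all Cd3+ cells, and Trav15d-1-dv6d-1 and Trav15d-2-dv6d-2 had 20 and 1.

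**Figure D5:**
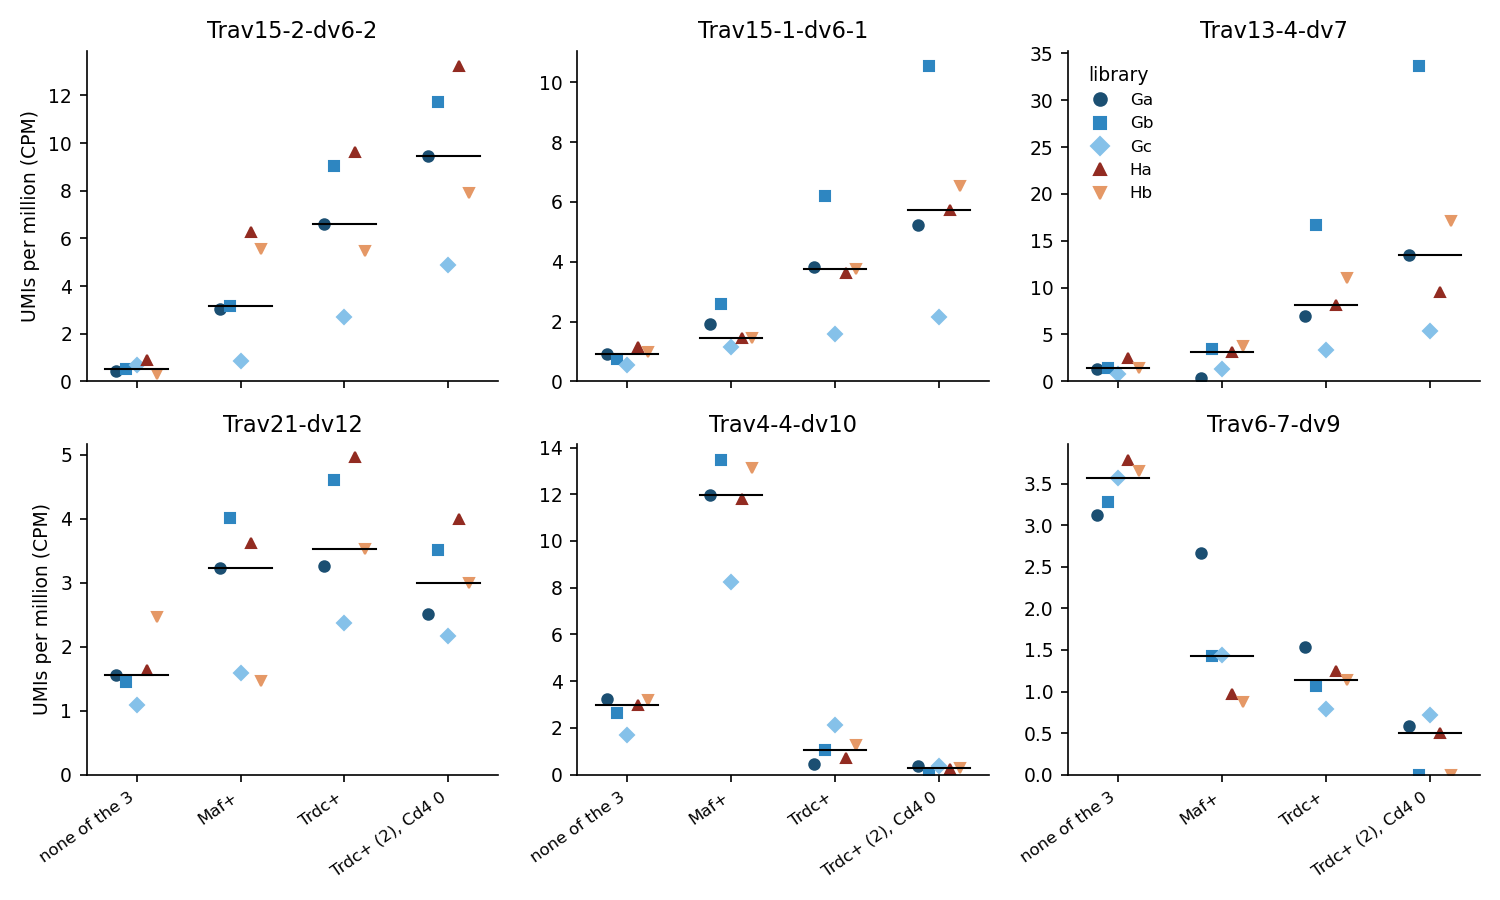
CPM of 6 segments shared by alpha and delta, in cells with none of Foxp3, Maf and Trdc, in Maf-positive cells, in Trdc-positive cells and in cells with 2 or more Trdc UMIs and no Cd4 UMI. Points are libraries and bars their median. Trav4-4-dv10 is highest in Maf-positive cells (8.24 to 13.5 CPM), and Trav15-2-dv6-2 and Trav13-4-dv7 are highest in the Trdc classes by their medians, with medians of 3.15 and 3.14 CPM in Maf-positive cells against 0.52 and 1.38 in cells with none.

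The same classes were compared over all genes, a comparison added after these shares were seen. A gene counted as called when its CPM differed at least 2-fold in the median library and to the same side in all 5, among 14758 genes with at least 100 UMIs, with a pseudocount of 0.5 UMIs shared out between the classes by their totals. Against cells with none, Trdc-positive cells had 4 of 35 Trav genes higher, where 5.01% of all genes were, and 12 lower, where 0.854% were. The 4 higher were Trav15-2-dv6-2 (log2 ratio 3.91), Trav13-4-dv7 (2.35), Trav15-1-dv6-1 (1.93) and Trav21-dv12 (1.12). The lower ones ran from Trav6-5 (-1.19) to Trav3-4 (-2.31) and held Trav3-3 (-1.42) and Trav6-7-dv9 (-1.59). Of 13 Trbv genes 4 were higher, namely Trbv15 (1.86), Trbv2 (1.71), Trbv3 (1.46) and Trbv12-1 (1.13), and none was lower, with Trbv12-2 at -0.79 and Trbv26 at -0.99. The 4 higher Trav genes were all dv segments, and Trav6-7-dv9 was the only dv segment called lower. Trav4-4-dv10 (-1.33) and Trav14d-3-dv8 (-1.11) also had medians more than 2-fold lower. They were not called, because they were not lower in every library.

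Maf-positive cells had 3 of 35 Trav genes higher, where 10.2% of all genes were, and 13 lower, where 2.14% were. The higher ones were Trav15-2-dv6-2 (log2 ratio 2.78), Trav4-4-dv10 (2.02) and Trav15-1-dv6-1 (1.03). Among the Trbv genes Trbv1 (2.43), Trbv2 (2.09) and Trbv3 (1.83) were higher and Trbv12-2 (-1.10) lower. As a share of the 35 Trav genes, higher calls lay above the share over all genes in Trdc-positive cells and below it in Maf-positive cells, while lower calls lay above it in both. Many of these segments have few UMIs in the smaller class. Where at least 50 UMIs were expected there, a minimum added after the counts were seen, Trdc-positive cells had 4 of 19 Trav genes higher and 5 lower (4.26% and 0.604% of all genes) and 1 of 6 Trbv genes higher. Maf-positive cells then had 1 of 4 Trav genes higher, Trav4-4-dv10, and 1 lower, Trav6-7-dv9, and 1 of 2 Trbv genes lower, Trbv12-2 (7.89% and 1.59% of all genes).

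Markers of other cell types moved with these classes. The 8 gamma-delta T cell genes summed to 5.43 to 6.91 CPM in cells with none, 219 to 382 in Maf-positive cells, 575 to 691 in Trdc-positive cells and 947 to 1151 CPM in Trdc cells without Cd4. All 8 were found in each of the latter 3, and Trdc alone was at 0 in cells with none, by the rule. Of the 1999 Maf-positive cells 654 also had Trdc, so part of their contrast is set by the classes. Trdc itself had a median of 129 CPM in Maf-positive cells. Maf-positive cells without Trdc were not taken apart. The 5 NK genes summed to 13.5 to 25.4 CPM in cells with none, 54.8 to 106 in Maf-positive and 216 to 282 in Trdc-positive cells. The 5 regulatory T cell genes, Foxp3 among them, summed to 60.6 to 339 CPM in cells with none, 1034 to 1677 in Maf-positive, 726 to 1048 in Trdc-positive and 2552 to 4348 CPM in Foxp3-positive cells, and to 1075 to 1473 CPM in Trdc cells without Cd4. Foxp3 was at 0 in cells with none by the rule. Its median was 40.2 CPM in Maf-positive and 14.2 CPM in Trdc-positive cells, so most of those 2 sums came from Il2ra, Ikzf2, Ctla4 and Il2rb. Of the 2000 Trdc cells without Cd4, 34 had a Foxp3 UMI. The 3 NKT cell genes had medians of 19.7 CPM in cells with none, 41.8 in Trdc-positive, 88.5 in Maf-positive and 119 in Foxp3-positive cells. Myeloid genes reached 1268 CPM and fibroblast genes 375 CPM in Maf-positive cells of their highest library, with medians of 422 and 2.09 CPM, while erythroid genes were highest in cells with none in their median library (1177 CPM against 51.0 to 67.3 in the 3 classes). The part of other cell types in the segment results was not tested.

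The genes of receptor assembly and signalling were a separate list of 18, of which 15 had at least 100 UMIs. In Trdc-positive cells 1 was higher, Trdc itself by the rule, and 1 lower, Dntt (-1.04), which encodes the terminal transferase that adds bases at the joints. In Maf-positive cells Trdc was called higher, since the comparison cells have none by the rule, and Dntt lower (-2.10). Dntt was found in 28.8% of Cd3+ cells at 43.6 to 84.4 CPM. Of the recombinase genes, Rag1 had 1 UMI and Rag2 had 2 in all Cd3+ cells. In Trdc-positive cells Trac had a log2 ratio of -0.47, Trbc2 of -0.55 and Trbv12-2 of -0.79, none a call. In Maf-positive cells they had -0.27, -0.56 and -1.10, only the last a call. The part of receptor RNA level in the Trbv12-2 values was not tested.

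The last question was whether cells that show an endogenous alpha differ from cells that show Trav14. The 5910 cells with only another Trav were compared with the 613 cells with only Trav14. The response to receptor signals was read from 6 early genes (Nr4a1, Nr4a3, Egr1, Egr2, Irf4 and Il2ra), as the share of cells with at least 1 UMI of any of them after thinning. Among Trav14-only cells it was 31.4%, 2.63%, 37.8%, 6.12% and 3.36%. Among cells with only another Trav it was 32.1%, 4.08%, 32.6%, 5.05% and 3.47%. Ga and Gc were high and Gb, Ha and Hb low for both kinds of cells, and every interval of the difference held 0, the widest reaching from -8.62 to 8.11 points in Ga. The difference was not detectable at this depth.

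The beta chain gave a similar picture. In cells with only Trbv12 the early genes were found in 26.8%, 2.42%, 23.6%, 4.90% and 4.50%, and in cells with only another Trbv in 23.5%, 5.91%, 21.1%, 5.40% and 3.92%. Only the interval of Gb excluded 0, with -3.49 points (-6.45 to -0.90). In the libraries where the response was common, cells with another Trav showed it more often than cells in which no Trav was found, by 6.94 points in Ga (4.06 to 9.86) and 10.8 points in Gc (8.10 to 13.6). In Gb, Ha and Hb the intervals of that difference held 0. Cells with only Trav14 lay above cells with no Trav by 6.31 points in Ga (-1.41 to 14.8) and 16.1 points in Gc (8.38 to 24.3), so in Gc the gap was found with either kind of Trav. For the beta chain the sign was the opposite, the difference from cells with no Trbv being -1.83 points in Ga (-5.04 to 1.47) and -2.29 in Gc (-5.39 to 0.95) for cells with only Trbv12. For cells with only another Trbv it was -5.13 points in Ga (-8.73 to -1.34) and -4.82 in Gc (-7.85 to -1.63).

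Over all genes, the calls by alpha use outside the Trav genes depended on the pseudocount. By the same rule 254 of 14758 genes (1.72%) were higher and 35 (0.237%) lower in cells with only another Trav. All 35 Trav genes were called by construction, 29 higher and 6 lower, the 10 highest ratios being Trav genes as well. With 0.5 UMIs added to both classes whatever their totals, which was computed first and replaced after its counts were seen, 55 genes (0.373%) were higher and 278 (1.88%) lower. The share of higher among called genes thus turned from 87.9% to 16.5%, and no direction can be read. Besides 6 Trav14 genes, the lowest 10 ratios held Epha3 (log2 ratio -2.78), Kcnma1 (-2.03), Gm48984 (-1.73) and Tas1r3 (-1.72), the last 3 with 139 or fewer UMIs in all cells.

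Where at least 50 UMIs were expected in the smaller class, 10 of 8781 genes were higher (0.114%) and 1 lower (0.0114%). Of the 10, 5 were Trav genes by construction and the others were the chemokine gene Ccl4 (3.95), the gamma constant gene Tcrg-C2 (2.09), Gm47782 (1.38), the hemoglobin gene Hba-a2 (1.06) and the granzyme gene Gzmk (1.01). Slc22a15 was lower (-1.10). With 0.5 added to both classes and the same minimum, 8 genes were higher and 3 lower, 5 of the higher being Trav genes. The calls outside the Trav genes thus still depended on the pseudocount. In its lowest library Hba-a2 had a log2 ratio of 0.02 and Tcrg-C2 of 0.16. The receptor list had no call in 15 genes, with Trac at -0.01, Cd4 at -0.05 and Trdc at 0.16. Trbv12-2 was at 0.35 and Trbv26 at 0.01. Of 13 Trbv genes 1 was called higher, Trbv24, with 45 against 1 UMIs, and it was called lower with 0.5 added to both classes, so it has no direction.

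Between libraries, the spread of single segments rested largely on Gc. The highest and lowest library differed at least 2-fold for 12 of 48 segments (9 Trav and 3 Trbv), where 13.8% of the 14758 genes did. Without Gc 3 of the 48 segments did, where 12% of the genes did, so the count then lay below that of all genes. The median log2 span of the segments was 0.72 against 0.39 over all genes, and 0.55 against 0.35 without Gc. The widest was Trav13-4-dv7, at 2.55, 4.74, 1.33, 4.02 and 3.92 CPM, a log2 span of 1.83. Trav15-2-dv6-2 (1.57) and Trav15-1-dv6-1 (1.38) followed, and all 3 were lowest in Gc. Without Gc their log2 spans were 0.89, 0.81 and 0.40, none of them 2-fold. Segments have few UMIs and counting error widens a span. Of 15 segments with at least 300 UMIs 3 were called, where 7.9% of genes were, and of 81 with at least 20 UMIs 41 were called, where 27% of genes were.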

How the data were processed

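RNA of 5 single-cell samples was analysed as deposited: UMI counts per gene and barcode, which the authors made with Cell Ranger 6.0.0 on mm10, per the submitters' processing notes (the matrix headers name cellranger 7.1.0). Whether depth was equalised or introns counted: not given in the sources used here.

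Barcodes with at least 500 UMIs, at most 10% mitochondrial UMIs and at least 1 UMI of Cd3d, Cd3e or Cd3g were kept, and the deposited counts, 203888078 UMIs in 22874 of 25623 barcodes, were summed per library suffix. No doublet caller was run; leaving out the 6% of barcodes with most UMIs stands in for it. Families were formed by symbol. CPM are UMIs per 1000000 of the library's or class's total. Thinning drew 4000 UMIs per cell without replacement. Positions and sequences are from GENCODE M21 (all 163 symbols matched). Scripts were tested on simulated data. Tools were Python 3.11.15, numpy 2.4.6, scipy 1.17.1, pandas 2.3.3 and Biopython 1.88.

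The segments and lists were chosen with earlier results of these data known. Named were the 10 Trav and 10 Trbv genes with the highest median share, all Trav14, Trbv12 and dv genes, Trav11, Trav11d, Trav1, the 3 leading other families per class, the 10 highest and 10 lowest genes by alpha use, and a receptor list of 18 genes. The design named no pseudocount for the comparison by alpha use.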

Additional observations from a re-analysis of the deposited data

How the results depend on the processing

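The Trbv12 share of Trbv UMIs and the Trav14 share of Trav UMIs moved by less than their counting intervals under stricter, no or other cell filters and without the deepest 6% of barcodes, as did the 5 shares of cells. With at least 2 UMIs for a positive cell those shares became 5.06% (Trbv12), 0.859% (Trav14), 0.0382% (both), 9.70% (another Trav) and 3.69% (another Trbv). With thinning they became 12.9%, 1.88%, 0.277%, 16.0% and 9.69%, and without Trbv26, a choice made after seeing the data, another Trbv gave 10.2%. The difference in another Trav turned sign in Maf-positive cells (1.07 points without thinning, 0.17 without the deepest 6%) and in Trdc-positive cells (1.78 and 0.0905). The response by alpha use turned from -0.107 to 1.01 points with at least 2 Trav UMIs and to 0.358 without the deepest 6%. The cause was not tested. The Foxp3 difference in another Trav (-7.71 points) ran from -9.32 to -4.07 under the 4 alternatives, and the Trdc difference in Trav14 kept its sign under them.

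Segments spanning 2-fold numbered 12 of 48, or 3 of 15 at 300 UMIs, 41 of 81 at 20 UMIs and 3 to 11 of 48 without 1 library, Gc giving the 3. Genes by alpha use numbered 289, or 99 at 300 UMIs and 11 with 50 UMIs expected in the smaller class. With that minimum, which tests fewer genes, called segments fell from 20 to 10 in Trdc-positive and from 20 to 3 in Maf-positive cells. Both settings with expected UMIs and the pseudocounts were chosen after seeing the data. No paired analysis was possible because each group has 1 sample and no library could be tied to a group. V UMIs are few, most positive cells holding 1, so a cell without a segment's UMI says nothing of its receptor.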

Other observations

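Joining segments were tabulated after the V segments were seen. These counts per gene do not show whether a joining segment was joined to a V segment, so they do not measure rearrangement. Among beta joining segments, Trbj2-5 took 34.7% of Trbj UMIs in Cd3+ cells, Trbj2-7 29.9%, Trbj2-4 22.5% and Trbj1-2 5.43%. Among alpha joining segments, Traj18 took 15.3% of Traj UMIs, Traj27 14.4%, Traj33 13.9%, Traj12 13.8% and Traj15 4.40%. Traj18 and Traj33 are the joining segments of the invariant NKT and mucosal-associated invariant chains, whose V segments Trav11 and Trav1 had 1 and 13 UMIs here, few bases of Trav11 being unique to it. Traj33 was found, after thinning, in 11.4%, 9.88%, 5.63%, 11.1% and 9.82% of cells.

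Some Trav genes had many cells but never or rarely a second UMI in a cell. Trav14d-1 had 139 UMIs in 139 cells and Trav14n-1, of identical sequence, 33 UMIs in 33 cells, whereas Trav14-3 had 305 UMIs in 216 cells and up to 9 in a cell. The pseudogene Trav22 had 339 UMIs in 321 cells and at most 3 in a cell, against up to 13 UMIs of Trav4-3 (349 UMIs in 180 cells). Trav pseudogenes together took 7.55% of Trav UMIs (median over libraries), and Trbv pseudogenes 1.12% of Trbv UMIs.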
